A study of Mus musculus with 6 samples.

Results

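Potassium channels let potassium ions leave or enter a cell along their gradient and so set the resting membrane potential. Mice carry a large family of them, whose gene symbols start with Kcn. Voltage-gated channels open on depolarization, inward rectifiers and two-pore channels hold the potential at rest, and calcium-activated channels couple the potential to calcium signals. Auxiliary subunits change the gating of a pore or its transport to the surface. In contractile cells such as the myoepithelium, the outer or basal layer of the mammary gland, the membrane potential bears on calcium entry and contraction.

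The members were chosen by name and by count. They are all rows of the count files whose symbol starts with Kcn, which numbered 95 of 23337 genes, and the 37 selected on a summed count of at least 60 over the 6 files are described by class. This limit uses the counts of all libraries together, so the presence of the 37 genes is not a result. Just inside it lay Kcnd1 with 60 reads, Kcnk6 with 82 and Kcnj8 with 84, and just outside it Kcnn1 with 58, Kcnab1 with 57 and Kcns1 with 56. Of the 58 genes below the limit, 14 had 0 reads in all 6 libraries. A low-count filter kept 43 of the 95 genes for testing, all 37 above the limit among them. By class the 37 were 14 voltage-gated pore or modifier subunits, 5 inward rectifiers, 5 two-pore channels, 4 calcium-activated channels, 8 auxiliary subunits and the non-coding RNA Kcnq1ot1, which is transcribed antisense to Kcnq1.

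The RNA libraries hold sorted mammary basal cells of Vim knockout mice (allele pair Vimtm1Cba/tm1Cba, 4 libraries) and of wild-type mice (Vimwt/wt, 2 libraries). Vim encodes vimentin, an intermediate filament protein. All mice were 15 weeks old and of a 129/Sv X C57BL/6 background, and each library pooled cells of 2 to 3 mice. Cells came from collagenase-digested glands and were sorted as live, CD45-negative, CD31-negative, CD24-low and CD49f-high, so the groups share the same gate and received no treatment. A day code in the file names places knockout 1, knockout 2 and wild type 1 in experiment 1, and knockout 3, knockout 4 and wild type 2 in experiment 2. Each p-value below weighs the genotype difference against the spread between such pools. In fits with genotype alone, that spread includes the difference between the 2 experiments.

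Total counts per library ran from 25347967 to 30771258 in the knockout and from 27342539 to 31200622 in the wild type, and the 37 genes took between 0.0240% and 0.0283% of them. Vim, the targeted gene, was at 105 ± 8.96 CPM, counts scaled to library size, in the knockout (SD, n = 4) and at 228 ± 18.5 CPM in the wild type (SD, n = 2) (edgeR log2 fold change -1.12, adjusted p = 0.019). The basal markers were abundant in all libraries, with a sum over 10 genes of 17957 to 21243 CPM in the knockout and of 20153 to 20945 CPM in the wild type. Ptprc, which encodes CD45, had 4, 1, 0 and 2 reads in knockout 1 to 4 and 15 and 0 reads in wild type 1 and 2. The leukocyte list as a whole was not near 0. Its 8 genes summed to 105 to 154 CPM in the knockout and to 165 and 135 CPM in wild type 1 and 2, most of it Cd74 and Cd68, while Ptprc, Cd52 and Cd3e were at 0 in some library. Pecam1, which encodes CD31, had 110, 186, 193 and 112 reads in knockout 1 to 4 and 998 and 315 reads in wild type 1 and 2. Endothelial markers were highest in wild type 1. Their sum over 14 genes was 71.4 to 93.7 CPM in the knockout, 289 CPM in wild type 1 and 113 CPM in wild type 2. None of the 14 was at 0 in any library. For 11 of the 14, every knockout library lay below both wild-type libraries, beside 8.57% of all tested genes.

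Levels of different genes were compared as TPM, which divides counts by exon length before scaling to library size. Most channel genes were weakly expressed. The median over the 37 genes was 1.598 TPM, against 19.3 TPM over all 13925 tested genes, and 22 of the 37 had a mean of at least 1 TPM. Kcnk1 and Kcnmb1 were the 2 members above the median of all tested genes. Kcnk1 encodes the two-pore leak channel TWIK1, and Kcnmb1 encodes the beta subunit of the large-conductance calcium-activated (BK) channel that is typical of smooth muscle. The sum over the 5 two-pore channels was 80.6 ± 4.15 TPM in the knockout (SD, n = 4) and 82.8 ± 11.4 TPM in the wild type (SD, n = 2). Auxiliary subunits summed to 45.1 ± 6.75 TPM in the knockout and 46.1 ± 4.63 TPM in the wild type. Calcium-activated channels summed to 18.1 ± 2.78 and 20.0 ± 2.36 TPM, and inward rectifiers to 8.30 ± 0.694 and 7.91 ± 3.42 TPM, knockout first. The voltage-gated class was the 1 coding class whose library sums did not overlap. It summed to 40.1, 46.8, 52.8 and 47.1 TPM in knockout 1 to 4, and to 33.0 and 35.2 TPM in wild type 1 and 2.

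**Figure D1:**
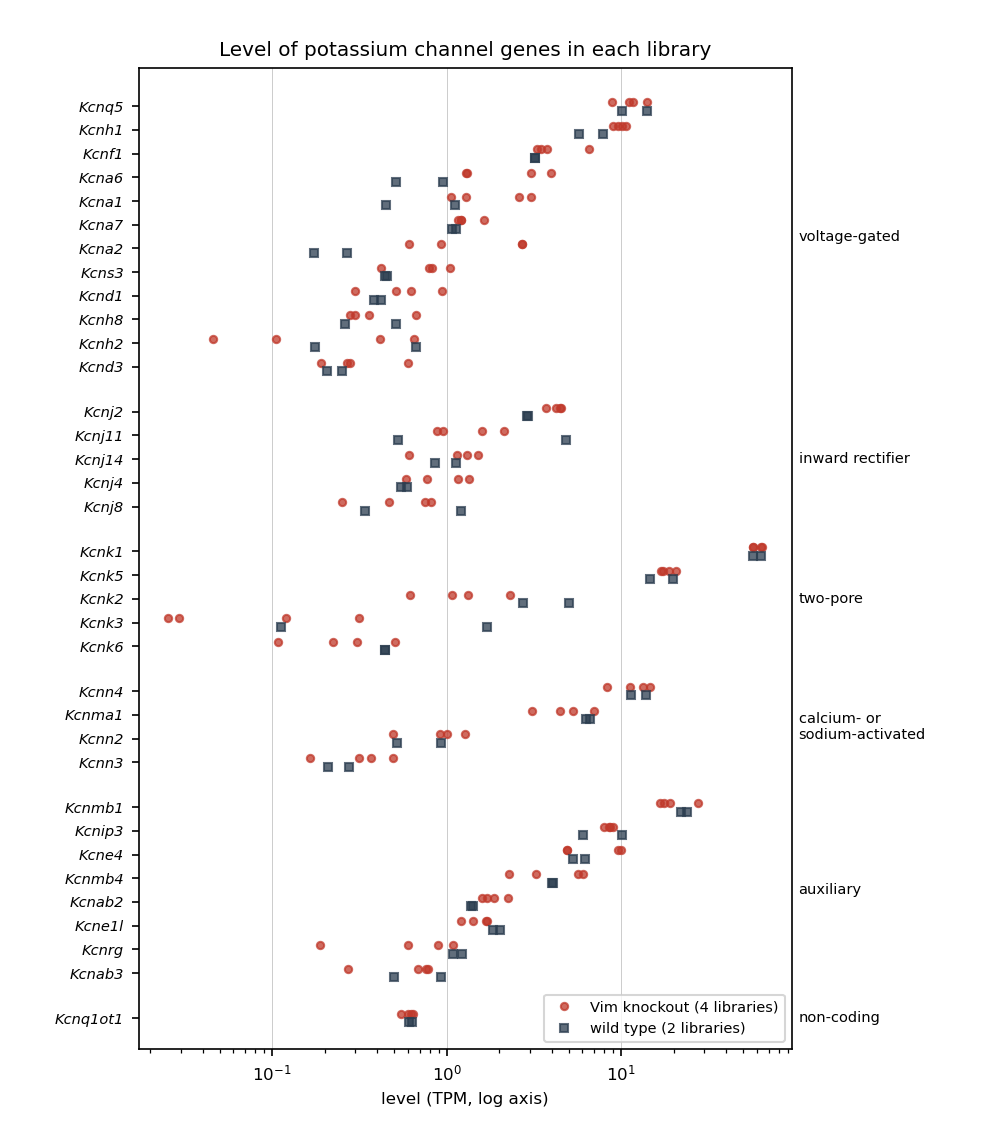
Level of the potassium channel genes reported here in TPM on a log axis, by class. Each red circle is 1 of 4 knockout libraries and each dark square 1 of 2 wild-type libraries; Kcnk1 lies highest, at about 60.4 TPM on average, and most genes lie below 10 TPM.

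Sequence upstream of the annotated start was compared for genes that the levels and the comparison below turn on. RefSeq promoter windows (GRCm38.p6) matched 27 of the 37 genes, and for 20 genes a window was anchored at the start used in the count files. CpG dinucleotides, the sites of DNA methylation in mammals, were counted as the letters CG in the 250 bases before the start. The median was 8.5 CG over the 20 genes and 6 over all 32851 windows, of which 92.1% held at least 1. Shown are 2 Kv1 genes, the two-pore gene Kcnk2, and the most abundant pore and auxiliary genes, with each CG in capitals.
Kcna2, chr3:107101317-107101566, plus strand: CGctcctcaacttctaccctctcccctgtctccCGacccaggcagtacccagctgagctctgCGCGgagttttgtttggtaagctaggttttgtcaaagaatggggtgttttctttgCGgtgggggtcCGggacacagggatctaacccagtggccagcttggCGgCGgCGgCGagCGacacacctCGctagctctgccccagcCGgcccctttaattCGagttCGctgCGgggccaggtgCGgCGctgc
Kcna6, chr6:126740675-126740924, minus strand: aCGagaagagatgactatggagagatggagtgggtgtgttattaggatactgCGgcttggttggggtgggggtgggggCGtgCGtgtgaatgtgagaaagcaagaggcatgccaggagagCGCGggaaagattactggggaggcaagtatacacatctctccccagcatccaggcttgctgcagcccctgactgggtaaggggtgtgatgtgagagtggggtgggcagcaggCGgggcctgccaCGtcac
Kcnk2, chr1:189344193-189344442, minus strand: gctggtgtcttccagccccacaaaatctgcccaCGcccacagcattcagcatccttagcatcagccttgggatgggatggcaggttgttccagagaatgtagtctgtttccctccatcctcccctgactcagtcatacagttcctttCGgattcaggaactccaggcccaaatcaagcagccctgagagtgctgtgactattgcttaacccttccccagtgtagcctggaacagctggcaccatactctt
Kcnk1, chr8:125994852-125995101, plus strand: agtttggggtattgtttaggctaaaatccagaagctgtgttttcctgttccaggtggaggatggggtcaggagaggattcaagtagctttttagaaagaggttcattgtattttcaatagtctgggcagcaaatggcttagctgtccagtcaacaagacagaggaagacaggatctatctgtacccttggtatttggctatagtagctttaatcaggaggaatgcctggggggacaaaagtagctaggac
Kcnmb1, chr11:33962763-33963012, plus strand: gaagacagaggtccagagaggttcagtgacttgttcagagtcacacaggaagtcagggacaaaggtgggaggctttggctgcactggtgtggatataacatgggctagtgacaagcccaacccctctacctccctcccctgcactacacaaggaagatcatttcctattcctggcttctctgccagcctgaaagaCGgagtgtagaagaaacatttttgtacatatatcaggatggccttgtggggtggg
Kcna2 had 18 CG, more than 78.3% of all windows, and Kcna6 had 8. Kcnk2 had 2 and Kcnmb1 1, and Kcnk1, the most abundant of the 37 genes, had 0. RefSeq also lists 3 other starts for Kcnk2, whose windows held 5, 27 and 28 CG, so the low count belongs to the start used in the count files.

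In the comparison of knockout with wild type, none of the 37 genes passed an adjusted p under 0.05 (edgeR, adjusted over all tested genes; smallest adjusted p = 0.257, for Kcna2). Over all tested genes 0.079% were called. At an unadjusted p under 0.05 there were 7 of the 37 genes (18.9%), beside 8.57% of all tested genes. Of these, 5 were higher in the knockout (Kcna1, Kcna2, Kcna6, Kcnh1 and Kcnj2), beside 4.48% of all tested genes, and 2 were lower (Kcnk2 and Kcnk3), beside 4.09%. DESeq2 called Kcna2 and Kcna6, where it called 1.88% of all genes it tested. With limma-voom 0 members were called, where 0.0718% of all tested genes were. With the experiment as a replicate block 0 members were called, where 1.56% of all tested genes were. In that block fit 7 of the 37 genes (18.9%) had an unadjusted p under 0.05, beside 13.6% of all tested genes. Kcna1 was not among them (edgeR block fit, unadjusted p = 0.0536). The median log2 fold change of the 37 genes was 0.10, beside -0.01 over all tested genes.

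**Figure D2:**
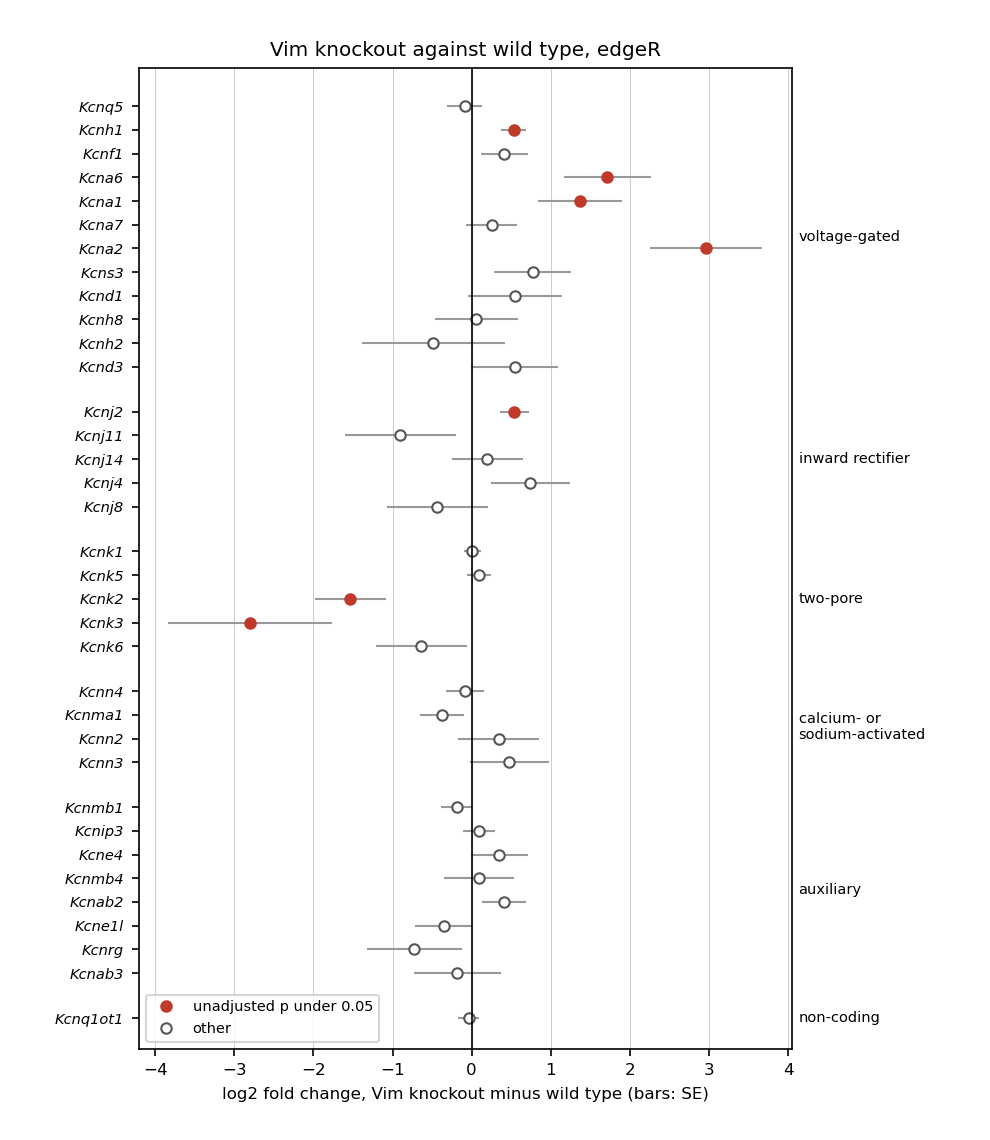
Log2 fold change of the genes reported here, knockout minus wild type, from edgeR, with bars of 1 SE. Filled points had an unadjusted p under 0.05; they include 3 genes of the Kv1 family above 0 (Kcna1, Kcna2 and Kcna6) and the two-pore genes Kcnk2 and Kcnk3 below 0.

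Voltage-gated subunits lay mostly above 0. Of the 14 genes, 12 had a positive log2 fold change, and the class median was 0.54, beside -0.01 over all tested genes. The median stayed between 0.49 and 0.69 whichever library was left out. The knockout libraries all lay above both wild-type libraries for 5 of the 14, among them Kcna2, Kcna6, Kcnf1 and Kcnh1. Over the 37 genes there were 7 such genes (18.9%) and 2 on the opposite side (5.41%), beside 7.6% and 8.57% of all tested genes. The mean level of Kcnh1 differed by 2.98 TPM between knockout and wild type.

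Kcnh1 encodes EAG1, an ether-a-go-go channel that activates slowly on depolarization. It lies on chromosome 1, positions 192190872 to 192510158 (mm10). Its level was 23.4, 24.9, 22.2 and 27.0 CPM in knockout 1 to 4, against 18.8 and 14.9 CPM in wild type 1 and 2. All knockout libraries were above both wild-type libraries, and the knockout libraries varied little, with a coefficient of variation of 8.5%. The log2 fold change was 0.53 (SE 0.15, edgeR adjusted p = 0.336).

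Kcnq5, which encodes the M-current subunit Kv7.5, was the most abundant voltage-gated gene at 11.7 TPM over all libraries. It was at 27.8 ± 5.30 CPM in the knockout (SD, n = 4) and 29.6 ± 8.46 CPM in the wild type (SD, n = 2), a log2 difference of -0.09 (SE 0.22, edgeR adjusted p = 0.97). The silent subunit Kcnf1, which modifies Kv2 channels, had 10.8 CPM in knockout 1 and 5.63 to 6.21 CPM in the other knockout libraries, against 5.11 and 5.54 CPM in the wild type.

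The Kv1 family holds the largest positive values among the 37 genes. Kv1 channels are delayed rectifiers best known from axons, where Kcna1 and Kcna2 products sit beside the nodes of myelinated fibres. Of the 8 Kv1 rows, 4 were above the limit (Kcna1, Kcna2, Kcna6 and Kcna7). Kcna1 (126636463 to 126645801) and Kcna6 (126708329 to 126740674) are neighbours on chromosome 6, 62.5 kb apart, and Kcna2 lies on chromosome 3 (107101567 to 107115005). The other genes of these clusters were nearly silent, with summed counts of 13 for Kcna5, 8 for Kcna3 and 0 for Kcna10.

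Kcna2 had 117, 273, 325 and 64 reads in knockout 1 to 4, against 34 and 19 reads in wild type 1 and 2. That is 3.68, 10.8, 10.9 and 2.52 CPM in the knockout and 1.03 and 0.731 CPM in the wild type. All knockout libraries were above both wild-type libraries, and knockout 2 and 3, from different experiments, stood above knockout 1 and 4. The log2 fold change was 2.97 (SE 0.71, edgeR adjusted p = 0.257), and DESeq2 gave an adjusted p = 5.71e-05. Kcna2 had log2 differences of 2.53 in experiment 1 and 2.73 in experiment 2. Across the leave-one-out fits the log2 fold change lay between 2.66 and 3.26, with edgeR adjusted p from 0.156 to 0.524.

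Kcna6 was at 2.58, 6.16, 7.99 and 2.72 CPM in knockout 1 to 4, against 1.86 and 1.08 CPM in wild type 1 and 2. The groups did not overlap, and knockout 2 and 3 were again highest. Its log2 fold change was 1.72 (SE 0.55, edgeR adjusted p = 0.393, DESeq2 adjusted p = 0.0361). Kcna1, described after its values were seen, had 3.24, 8.10, 9.54 and 4.13 CPM in the knockout and 3.35 and 1.46 CPM in the wild type. Here wild type 1 lay just above knockout 1, so the groups overlapped (log2 fold change 1.37, SE 0.53, edgeR adjusted p = 0.523). Without wild type 2 the value for Kcna1 was 0.90, and without wild type 1 it was 2.11. The muscle-type member Kcna7 was also compared (log2 fold change 0.25, SE 0.32, edgeR adjusted p = 0.939). Kcna1, Kcna2 and Kcna6 together summed to 3.27, 8.36, 9.72 and 3.22 TPM in the knockout and to 2.33 and 1.14 TPM in the wild type. The other 11 voltage-gated genes summed to 40.6 ± 3.48 TPM in the knockout (SD, n = 4) and 32.4 ± 2.43 TPM in the wild type (SD, n = 2).

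Knockout 2 and 3 were also highest for several Schwann cell and nerve markers. Cdh19, a cadherin of Schwann cell precursors, was at 8.05, 11.6, 18.4 and 6.06 CPM in knockout 1 to 4, against 2.25 and 1.31 CPM in wild type 1 and 2. Of the 11 listed markers, 10 had a positive log2 fold change and 6 an unadjusted edgeR p under 0.05, beside 8.57% of all tested genes. None was at 0 in any library, and edgeR called 0 with genotype alone and 1, Foxd3, with the replicate block, while DESeq2 called 3. Over all genes the replicate block called 1.56% and DESeq2 1.88%. Their summed level was 317 to 477 CPM in the knockout and 266 to 347 CPM in the wild type. Sox10, which basal mammary cells also express, made up a large part of that sum, with 118 to 199 CPM in the knockout and 102 to 168 CPM in the wild type. The part of such cells in the Kv1 values was not tested. In bulk samples, more cells of a type and more RNA per cell cannot be told apart.

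**Figure D3:**
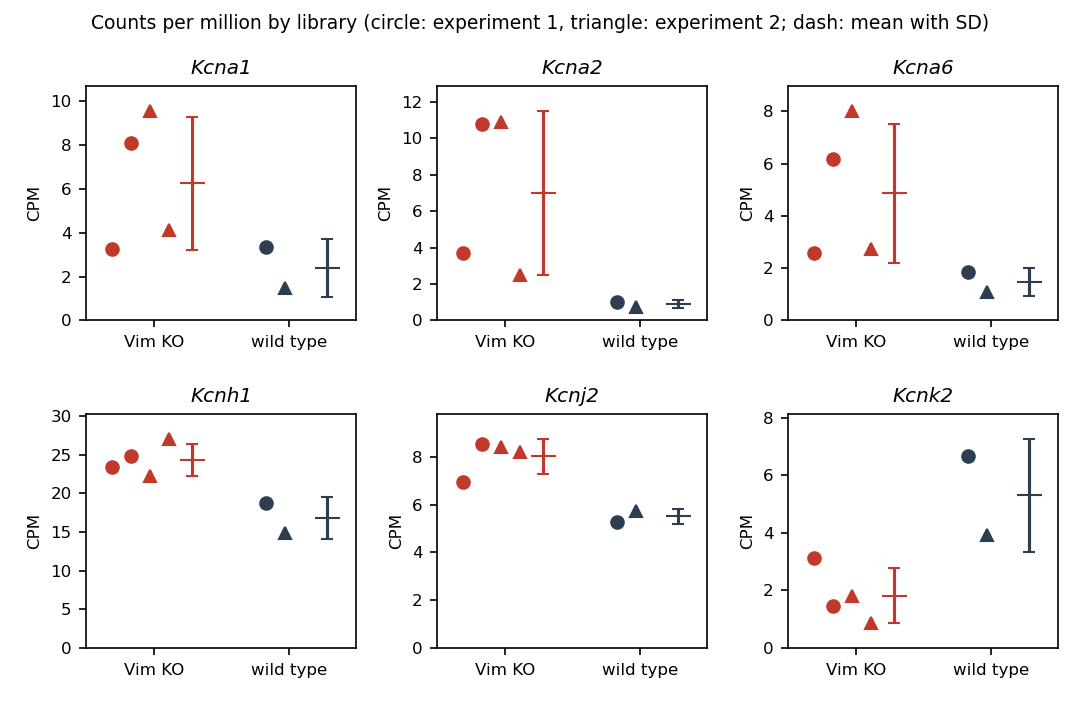
CPM of 6 genes in each library, with knockout libraries left of wild-type libraries, circles for experiment 1 and triangles for experiment 2, and a dash with bars for the mean and SD. Kcna1, Kcna2 and Kcna6 share 2 high knockout libraries, while Kcnh1 and Kcnj2 are tight within the knockout.

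Among the inward rectifiers, Kcnj2 encodes Kir2.1, a strong rectifier that anchors the resting potential. It lies on chromosome 11, positions 111066164 to 111076825. Its level was 6.95, 8.53, 8.40 and 8.19 CPM in knockout 1 to 4, against 5.29 and 5.74 CPM in wild type 1 and 2. All 4 knockout libraries were above both wild-type libraries, in both experiments by a similar amount (log2 differences 0.54 and 0.53). The log2 fold change was 0.54 (SE 0.19, edgeR adjusted p = 0.437). The related Kir2 genes Kcnj4 and Kcnj14 differed by 0.74 (SE 0.50, edgeR adjusted p = 0.805) and 0.20 (SE 0.45, edgeR adjusted p = 0.966) on the log2 scale.

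Kcnj11 and Kcnj8 encode the pores of ATP-sensitive channels, Kir6.2 and Kir6.1, and each lies beside the gene of its sulfonylurea receptor partner, 3.76 kb from Abcc8 on chromosome 7 and 16.5 kb from Abcc9 on chromosome 6. Kcnj11 was at 2.39, 0.988, 1.07 and 1.85 CPM in knockout 1 to 4, against 5.23 and 0.616 CPM in wild type 1 and 2. The wild-type libraries were thus the highest and the lowest of the 6. Abcc8 had the same extremes, with 5.56, 2.61, 2.02 and 4.01 CPM in the knockout and 14.02 and 1.85 CPM in the wild type. Kcnj8, described after its values were seen, was at 0.189, 0.356, 0.571 and 0.630 CPM in the knockout and 0.882 and 0.269 CPM in the wild type. Abcc9, which is known from pericytes as Kcnj8 is, was at 0.551 to 1.38 CPM in the knockout and at 2.55 and 0.962 CPM in the wild type. For both pores the log2 difference was negative in experiment 1 (-1.72 for Kcnj11 and -1.52 for Kcnj8) and positive in experiment 2 (1.11 and 0.98), and neither was called (edgeR adjusted p = 0.855 and 0.953). Without wild type 1 their log2 fold changes were 1.37 and 0.69.

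Two-pore channels split into 2 abundant genes with close levels in both genotypes and 3 rarer genes with negative log2 fold changes. Kcnk1 (chromosome 8, 125995102 to 126030688) was at 49.8, 51.4, 45.9 and 46.9 CPM in knockout 1 to 4, against 49.1 and 47.4 CPM in wild type 1 and 2. The wild-type values lay within the knockout range, and the log2 fold change was 0.01 (SE 0.11, edgeR adjusted p = 0.999). Kcnk5, which encodes the alkaline-activated channel TASK2, was at 21.5 ± 1.97 CPM in the knockout (SD, n = 4) and 20.1 ± 3.30 CPM in the wild type (SD, n = 2), a log2 difference of 0.10 (SE 0.15, edgeR adjusted p = 0.955).

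Kcnk2 encodes TREK1, a leak channel that opens on membrane stretch, and spans 189207930 to 189344192 on chromosome 1. It had 100, 37, 54 and 22 reads in knockout 1 to 4, against 220 and 102 reads in wild type 1 and 2. That is 3.14, 1.46, 1.81 and 0.866 CPM in the knockout and 6.69 and 3.93 CPM in the wild type. Every knockout library was below both wild-type libraries, and the log2 fold change was -1.53 (SE 0.45, edgeR adjusted p = 0.345). Kcnk2 had log2 differences of -1.61 in experiment 1 and -1.59 in experiment 2, and edgeR with the experiment as a block gave an adjusted p = 0.0659. Without wild type 1 the value was -1.08, and without knockout 1 it was -1.92.

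Kcnk3, which encodes the acid-sensitive channel TASK1 and was described after its values were seen, had most of its reads in wild type 1. It had 13, 4, 1 and 1 reads in the knockout, against 71 and 4 reads in wild type 1 and 2. The log2 fold change was -2.80 (SE 1.04, edgeR adjusted p = 0.497, or 0.0535 with the replicate block) and 0.11 without wild type 1. Kcnk3 had log2 differences of -2.75 in experiment 1 and -1.07 in experiment 2, the latter from 1, 1 and 4 reads. Kcnk6 was at 0.405 ± 0.234 and 0.631 ± 0.0326 CPM, knockout first (log2 fold change -0.64, SE 0.57, edgeR adjusted p = 0.896). The class median was -0.64, and it became 0.05 when wild type 1 was left out. Leaving out knockout 4 gave -0.38 and knockout 2 gave -1.01. Without knockout 1 Kcnk3 did not pass the low-count filter, and the median of the other 4 genes, -0.25, is not comparable with that of all 5.

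Wild type 1 was also the library with the highest level of all 14 endothelial markers. Cdh5, the cadherin of endothelial junctions, was at 2.52, 5.41, 6.01 and 4.05 CPM in knockout 1 to 4, against 32.6 and 11.3 CPM in wild type 1 and 2. All 14 markers had a negative log2 fold change and 13 an unadjusted edgeR p under 0.05, beside 8.57% of all tested genes. The edgeR fit called 0 of them and DESeq2 9, beside 0.079% and 1.88% of all genes. Pericyte and vascular smooth muscle markers were mixed, with 3 of 8 tested genes above 0 and 5 below, and Rgs5 was at 0.472 to 2.02 CPM in the knockout and at 4.78 and 1.46 CPM in the wild type. Their sum over 9 genes was 432 to 543 CPM in the knockout and 299 to 311 CPM in the wild type, most of it Mcam, and Higd1b and Ndufa4l2 were at 0 in some library. Mcam itself was at 387 to 497 CPM in the knockout and at 245 and 275 CPM in the wild type. With genotype alone edgeR called 0 of this list. The replicate block (edgeR adjusted p = 0.0094) and DESeq2 (adjusted p = 7.68e-05) each called 1, Mcam. Below wild type 1 the library orders differed, also among the endothelial markers. Knockout 1 was lowest for Pecam1, Cdh5, Kdr, Tie1, Emcn, Cldn5, Robo4 and Aqp1, and for Kcnj8. Knockout 4 was lowest for Tek, Egfl7, Vwf, Esam and Ecscr, and for Kcnk2. Knockout 1 was the highest knockout library for Kcnk2, Kcnk3 and Kcnj11. Wild type 2 was second for Kcnk2 and for the endothelial markers other than Egfl7, Vwf and Eng. It was lowest for Kcnj11 and Eng. Of the hormone-sensing luminal markers, Foxa1 and Prom1 had the library order of Kcnj11, while Esr1, Pgr, Prlr, Cited1 and Areg did not. The part of endothelial, pericyte or luminal cells in the values of Kcnk2, Kcnk3, Kcnj8 and Kcnj11 was not tested.

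**Figure D4:**
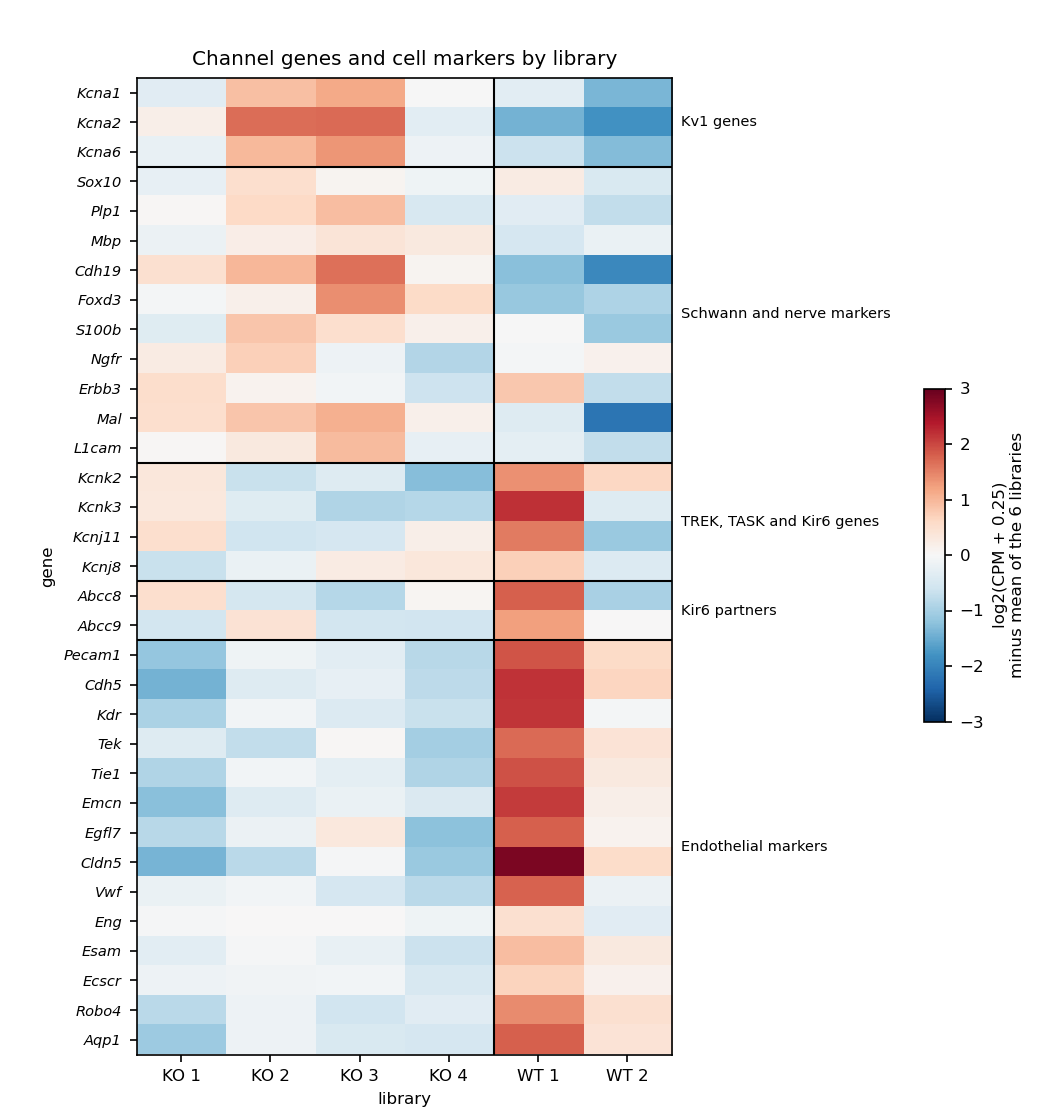
Level of channel genes and of cell markers in each library, as log2(CPM + 0.25) minus the mean of the 6 libraries, with knockout libraries left of the line and wild-type libraries right of it. The Kv1 genes are highest in knockout 2 and 3, as is Cdh19, while Kcnk3, Kcnj11 and the endothelial markers are highest in wild type 1.

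The calcium-activated class was led by Kcnn4, which encodes the intermediate-conductance channel of many epithelia. It was at 9.31, 5.81, 10.4 and 8.11 CPM in knockout 1 to 4, against 9.46 and 8.35 CPM in wild type 1 and 2, and the groups overlapped (log2 fold change -0.08, SE 0.24, edgeR adjusted p = 0.977). Kcnma1, the pore of the BK channel, was at 18.8, 14.4, 8.40 and 12.5 CPM in the knockout, against 17.3 and 17.8 CPM in the wild type. Knockout 1 was above both wild-type libraries and the other knockout libraries were below them (log2 fold change -0.38, SE 0.28, edgeR adjusted p = 0.836). The log2 difference was -0.07 in experiment 1 and -0.80 in experiment 2. The small-conductance genes Kcnn2 and Kcnn3 were low, at 0.858 and 0.304 TPM over all libraries, and had log2 fold changes of 0.34 (SE 0.51) and 0.47 (SE 0.50), with edgeR adjusted p = 0.953 and 0.922.

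Auxiliary subunits were led by Kcnmb1 (chromosome 11, 33963013 to 33973638). At 21.2 ± 4.19 TPM (SD, n = 6) it stood above its pore partner Kcnma1, at 5.46 ± 1.48 TPM, and above the other BK beta gene among the 37, Kcnmb4, at 4.23 ± 1.43 TPM. Its CPM was 39.8, 24.3, 25.5 and 28.4 in knockout 1 to 4, against 33.5 and 33.4 in wild type 1 and 2. As for Kcnma1, knockout 1 was above the wild type and the other knockout libraries were below it (log2 fold change -0.18, SE 0.20, edgeR adjusted p = 0.928). Kcnip3, a calcium-binding partner of Kv4 channels also known as calsenilin, was at 9.57 ± 0.439 and 8.97 ± 2.72 CPM, knockout first (log2 fold change 0.09, SE 0.20, edgeR adjusted p = 0.966). Its Kv4 partners Kcnd1 and Kcnd3 were at 0.528 and 0.299 TPM over all libraries.

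Kcne4, a single-span subunit that inhibits several Kv channels, followed the experiment within the knockout. It had 4.12 and 4.15 CPM in knockout 1 and 2 and 8.20 and 8.70 CPM in knockout 3 and 4, against 5.14 and 4.73 CPM in wild type 1 and 2. The log2 difference was -0.31 in experiment 1 and 0.83 in experiment 2 (edgeR adjusted p = 0.92 over both). Kcnab2, a cytoplasmic subunit of Kv1 channels, had 2.07, 2.92, 2.25 and 2.52 CPM in the knockout, against 1.79 and 1.89 CPM in the wild type. Those groups did not overlap, but the difference was small (log2 fold change 0.41, SE 0.28, edgeR adjusted p = 0.805). Kcne1l lay on the opposite side, at 0.758 ± 0.123 CPM in the knockout and 0.968 ± 0.00779 CPM in the wild type (log2 fold change -0.35, SE 0.37, edgeR adjusted p = 0.92). The remaining auxiliary genes, Kcnab3, Kcnmb4 and Kcnrg, had log2 fold changes of -0.18, 0.10 and -0.72, with edgeR adjusted p from 0.872 to 0.989.

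Of the voltage-gated genes not yet described, Kcnd1, Kcnd3, Kcnh8 and Kcns3 had log2 fold changes of 0.55, 0.54, 0.06 and 0.77, with edgeR adjusted p from 0.776 to 0.996. Kcnh2, the ERG channel of cardiac repolarization, followed the experiment. It had 0.597 and 0.948 CPM in knockout 1 and 2 and 0.943 CPM in wild type 1, and 0.0672 and 0.157 CPM in knockout 3 and 4 and 0.269 CPM in wild type 2. Kcnq1ot1 was at 17.6 ± 1.25 CPM in the knockout and 18.04 ± 0.563 CPM in the wild type (log2 fold change -0.04, SE 0.14, edgeR adjusted p = 0.982). None of the 37 genes shared exon bases with another gene on the same strand in the annotation used for counting.

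The counts of members with an unadjusted p under 0.05 moved with the library left out, and so did the share of all tested genes. Without wild type 1 there were 4 higher and 0 lower, beside 8.35% of all tested genes. Without wild type 2 there were 3 higher and 3 lower, beside 10.8%. Without knockout 1 there were 7 higher and 2 lower among the 36 members still tested, beside 10.6%. Without knockout 2, 3 or 4 there were 4, 4 and 5 higher and 1 lower each time, beside 7.71%, 5.83% and 6.61%. Kcna2 was the 1 gene of the 7 found in all 6 of these fits. Without any 1 library, no member was called.

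**Figure D5:**
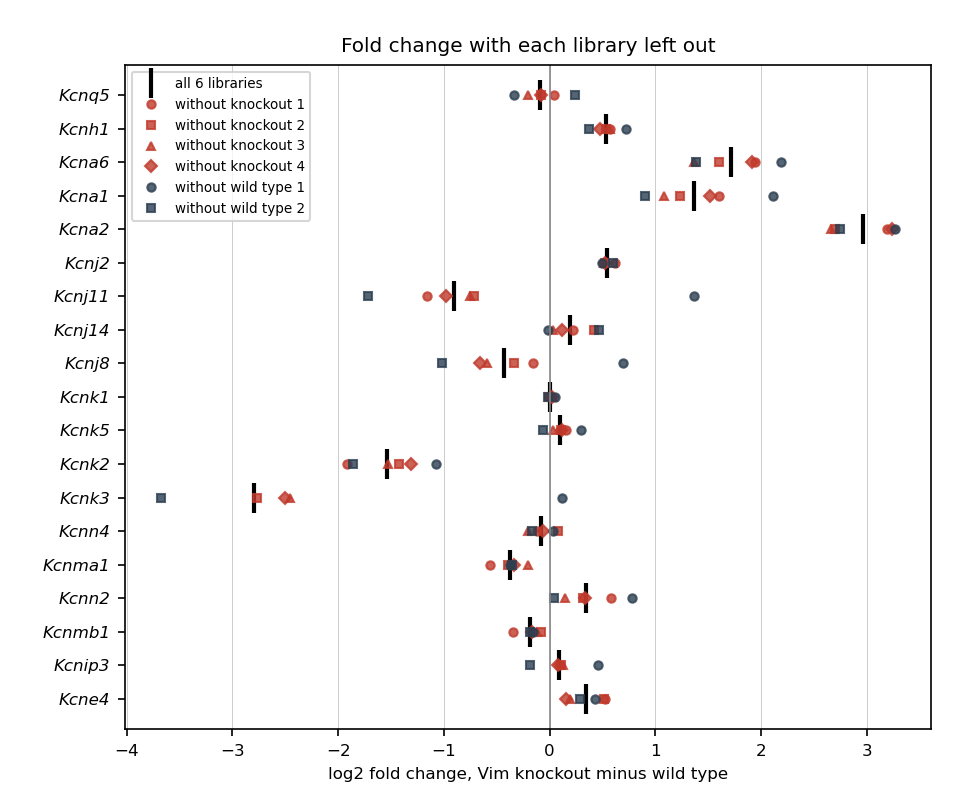
Log2 fold change of named channel genes, knockout minus wild type, with all 6 libraries (black bar) and with each library left out in turn. Kcnk3, Kcnj11 and Kcnj8 cross 0 without wild type 1, while Kcna2, Kcna6, Kcnh1, Kcnj2 and Kcnk2 stay on 1 side.

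Other genes of potassium handling and excitability were described from 3 lists. Over all tested genes, 4.48% were higher and 4.09% lower at an unadjusted edgeR p under 0.05. At the adjusted threshold edgeR called 0.079% of them with genotype alone and 1.56% with the replicate block. DESeq2 called 1.88% of the genes it tested. Of 28 potassium pump, cotransporter and regulator genes, 22 were tested. The edgeR test called 0 and DESeq2 2, 4 were higher and 0 lower at an unadjusted p under 0.05, and the median log2 fold change was 0.07, beside -0.01 over all tested genes. Fxyd6, a regulator of the sodium-potassium pump, was at 64.2, 62.3, 63.4 and 65.3 CPM in knockout 1 to 4, against 44.5 and 39.9 CPM in wild type 1 and 2 (log2 fold change 0.60, edgeR adjusted p = 0.154). In the block fit 3 of the genes rose, Fxyd6 (edgeR adjusted p = 0.0212), Slc12a2 and Atp1b2. Slc12a2, the sodium-potassium-chloride cotransporter NKCC1, was at 358 to 387 CPM in the knockout, against 245 and 292 CPM in the wild type (log2 fold change 0.47, edgeR adjusted p = 0.274, or 0.0493 with the block).

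Of 23 channel partner genes, 15 were tested. The edgeR test called 0 and DESeq2 1, beside 1.88% of all genes DESeq2 tested. At an unadjusted p under 0.05, 1 was higher and 0 lower, beside 4.48% and 4.09% of all tested genes. The median was -0.06. The 2 genes of smallest p were Hcn4 and Abcc9, whose levels are given above. Hcn4, a pacemaker channel, was at 2.99, 2.81, 4.74 and 3.38 CPM in the knockout, against 1.64 and 0.847 CPM in the wild type (log2 fold change 1.47, edgeR adjusted p = 0.273). Of 37 calcium entry genes, 29 were tested. Here edgeR called 0 and DESeq2 1, and 4 were higher and 0 lower at an unadjusted p under 0.05, beside the same shares of all genes. The median was 0.10. Cacna1g, the pore of a low-voltage T-type calcium channel, was at 63.6, 78.4, 60.2 and 53.6 CPM in the knockout, against 38.8 and 25.4 CPM in the wild type. Its log2 fold change was 0.99 (edgeR adjusted p = 0.204, or 0.00638 with the replicate block, where it rose). Trpc6, a receptor-operated cation channel, was at 3.24 to 4.31 CPM in the knockout, against 2.19 and 0.693 CPM in the wild type (log2 fold change 1.33, edgeR adjusted p = 0.393).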

How the data were processed

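The authors deposited raw read counts per gene for 6 libraries. Per the file headers, counts were made with featureCounts 1.5.1 over exons of the UCSC mm10 annotation with strand option 2 (reverse), and without options for multi-mapped or multiply overlapping reads. Base calls and alignment used bcl2fastq 2.17 and STAR 2.5.2b, per the submitters' processing notes. Depth was 25347967 to 31200622 counts per library. The members near the limit of 60 summed reads carry the largest counting error.

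Genes were kept with filterByExpr (13925 genes), scaled by TMM and tested with edgeR 4.0.16 in R 4.3.3 (glmQLFit, robust, and glmQLFTest, 2-sided, genotype only), with Benjamini-Hochberg adjustment over all tested genes and a threshold of 0.05. CPM is on the TMM scale. TPM was computed here from the counts and the exon lengths in the files. Within-experiment log2 differences used log2 CPM with a prior count of 2 and carry no test. DESeq2 1.42.0 and limma-voom (limma 3.58.1), other size factors and filters, a replicate block and the removal of each library were the alternatives.

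The labels speak of independent experiments, and a day code in the file names assigns the libraries to 2. Knockout and wild-type libraries of 1 experiment deviated together from their group means (r = 0.32, 0.29, 0.25 and 0.41 over genes), so the experiment was taken to pair them. With 2 wild-type libraries these values are not independent.

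Genes were named by rule: members called by the genotype or block fit, the 3 most abundant members per class, up to 5 members per direction with an unadjusted p under 0.05 and no overlap between groups, and up to 2 members per other list. Other members are given because every member above the limit is accounted for, and those described in full outside the rule (Kcna1, Kcnk3 and Kcnj8) were picked once their values were known. Marker genes are given where they move with a member. The members and lists were chosen with earlier results of these data known. A few genes are not reported here, though they stay in the counts, sums and fits.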

Additional observations from a re-analysis of the deposited data

Results flagged for a closer look

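Among the 37 channel genes, 2 had a knockout library far from the other 3 by Dixon's ratio, the gap to the nearest library over the range of the 4, with a 95% critical value of 0.829. Kcnf1 was highest in knockout 1, at 10.8 CPM against 5.63 to 6.21 CPM in the other knockout libraries (ratio 0.886). Kcna7 was highest in knockout 4, at 2.05 CPM against 1.41 to 1.46 CPM in the others (ratio 0.919). Chance flags about 1 in 20 groups, and 37 genes were examined.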

How the results depend on the processing

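With 4 knockout and 2 wild-type libraries, single libraries set many values, and members near 60 summed reads have wide errors. The count of members called stayed at 0 under limma-voom, other size factors (which moved the median of all genes by at most 0.014), other filters, both replicate blocks and each left-out library. DESeq2 called 2, Kcna2 (log2 fold change 2.99) and Kcna6 (1.74). Over all genes 265 were called by DESeq2 and 217 with the experiment as replicate block, against 11 with genotype alone, and 3 to 15 without 1 library (5 without knockout 2, 3 without knockout 3, 5 without knockout 4 and 4 without wild type 1). The experiment block changed no call among the members. The median of the tested members, 0.10, was 0.21 among genes of at least 1 CPM in 2 libraries, -0.016 with title numbers as the replicate block (libraries 1 and 2 of each genotype), -0.071 in experiment 1, 0.33 in experiment 2 and 0.11 to 0.39 without 1 library. With the title numbers Kcne4 (-0.26), Kcnn2 (-0.016) and Kcnj14 (-0.22) reversed. Leaving out 1 library gave log2 fold changes on both sides of 0 for Kcnip3 (-0.18 to 0.46), Kcnn4 (-0.20 to 0.076), Kcnj11 (-1.72 to 1.37), Kcnj14 (-0.019 to 0.46), Kcnk1 (-0.016 to 0.052), Kcnk5 (-0.059 to 0.29), Kcnq5 (-0.34 to 0.24), Kcnj8 (-1.02 to 0.69) and Kcnk3 (-3.67 to 0.11, not tested without knockout 1). The cause was not tested. A limit of 30 or 120 summed reads gave 49 or 26 members.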
